A study of Mus musculus with 7 samples.

Results

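The genes of actin filament assembly were followed in macrophages grown from mouse bone marrow, in a ChIP-seq map (chromatin immunoprecipitation followed by sequencing) of histone H3 dimethylated at lysine 79 (H3K79me2). The set was a list of 48 gene symbols, drawn up with earlier results of these data known. A row of the deposited table is a genomic region with its read count in each library. For each gene, the rows overlapping its RefSeq span were found and the row with the highest mean count over the 6 libraries stood for it. All 48 genes had such a row, among 9514 coding genes with a row and 29397 rows in all. The counts of a gene thus chose its row, and levels are given as a description. The comparison of treated with control libraries did not choose the rows, though the treated counts were part of the mean that did.

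Cells of C57BL/6 mice were grown from marrow for 7 to 8 days in medium conditioned by L929 cells, which secrete M-CSF. In 3 cultures SGC0946 was present at 1 µM while the cells differentiated. This compound inhibits DOT1L, the enzyme that methylates H3K79. The 3 control cultures had the solvent dimethyl sulfoxide (DMSO). The design text describes the cultures of a group as biological replicates. The growth protocol names both wild-type and knockout mice and does not tie either to these samples, and the input sample was not used here.

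H3K79me2 is laid down by DOT1L over the first part of transcribed genes and is a mark of active transcription. Actin monomers assemble into filaments that macrophages use to crawl, to engulf particles and to build podosomes. The Arp2/3 complex starts branches on existing filaments when WASP or WAVE proteins activate it, formins and Ena/VASP proteins lengthen unbranched filaments, capping proteins close filament ends, cofilin severs old filaments, and crosslinkers bind filaments into networks.

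The libraries held 16.7 to 19.5 M counts with DMSO and 2.95 to 3.13 M with SGC0946, and the labels name no spike-in chromatin. The protocol gives the same amount of ChIP DNA and the same intended number of reads for every library, and the number of reads sequenced in each was not used here. Counts kept are therefore the mean SGC0946 count as a percentage of the mean DMSO count, unscaled, so that any difference in sequencing depth is part of them, and changes in share are changes in a row's part of its own library. In bulk chromatin, fewer marked cells and less mark per cell cannot be told apart. All 10 macrophage markers had a row (1765 to 2010 DMSO counts per kb summed over the markers in each library, 335 to 362 with SGC0946). Of 20 markers of other cell types, 15 had no row, and Col1a1, Pecam1, Cd3e, S100a8 and Gata1 were among these. The rows of Cxcl12, Lck, Mpo and Klf1 had means of 0.333 to 4 DMSO counts, and that of Zbtb46 also overlapped Arfrp1 and Zgpat. The summed level of this list was 131 to 155 counts per kb with DMSO and 53.1 to 82.7 with SGC0946, and most of the DMSO sum was Zbtb46 (124 per kb). In the other 4 rows the mean count was higher with SGC0946: 6 for Cxcl12, 5.67 for Lck, 9 for Mpo and 6 for Klf1.

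All 48 genes lost H3K79me2 counts with SGC0946, and they differed widely in how much they kept. The range ran from 10.1% for Vasp, which encodes a filament elongation factor, to 49.9% for Cap1, which encodes a protein that recharges actin monomers. The median was 16.8%, against 14.0% over the 9089 coding genes tested. On unscaled counts all 48 were called lower, as were 99.8% of coding genes and 99.7% of all regions (0.022% and 0.0201% were called higher). In all 48 every SGC0946 count lay under every DMSO count, as in 99.3% of coding genes, so neither count sets actin genes apart. In share of the library, 20 of the 48 rose and 20 fell, and 8 did not pass the test (edgeR quasi-likelihood test on library totals, Benjamini-Hochberg adjusted p under 0.05). Of coding genes 9.98% rose and 50.1% fell, and of all regions 6.16% and 23.3%. For the actin genes that was 41.7% in each direction. The median log2 change in share was -0.02, beside -0.29 for coding genes and -0.09 for all regions. The split into 20 rises and 20 falls was 21 and 14 with TMM factors, 21 and 12 with DESeq2 size factors, 21 and 11 with the DESeq2 Wald test and 21 and 7 with cyclic loess. The median log2 change of all regions was 0.05, 0.06, 0.09 and -0.03 under these scalings, so falls in share are relative to the library total. The same 20 genes were called higher under all 5 scalings, but only 6 were called lower under all of them: Wasl, Fmnl3, Vasp, Gsn, Actn1 and Actn4. The 48 rows summed to 1.47 ± 0.00759% of all counts with DMSO and to 2.21 ± 0.0481% with SGC0946 (SD, n = 3 each).

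**Figure D1:**
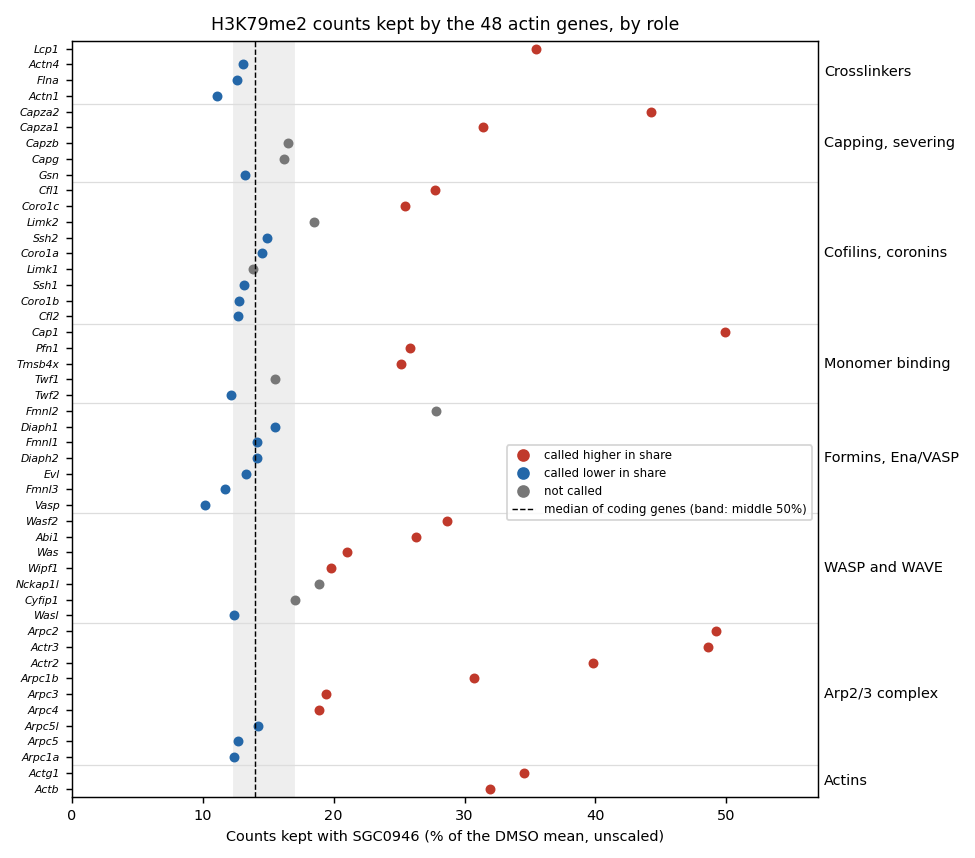
Counts kept with SGC0946 as a percentage of the DMSO mean (x axis) for each of the 48 genes, grouped by role, coloured by the call in share of the library. The dashed line is the median of coding genes (14.0%) and the band their middle 50% (12.4% to 16.96%). Members of the Arp2/3 complex spread from 12.4% to 49.2%, while the formin and Ena/VASP group had no member called higher.

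The 250 bases before the transcription start are shown for 4 genes that mark the range: Cap1 and Arpc2, which kept the most, Vasp, which kept the least, and Actg1, an actin gene with a CArG box, the motif of the serum response factor SRF. The sequences are from RefSeq (GRCm38.p6, the assembly that mm10 names), written on the gene's strand, at chr4:122886077-122886326 (minus strand) for Cap1, chr1:74236267-74236516 (plus) for Arpc2, chr7:19271855-19272104 (minus) for Vasp and chr11:120348496-120348745 (minus) for Actg1. Capitals mark CGGAAG on either strand, a core of the motif of ETS family factors, in Cap1, Arpc2 and Vasp, and the CArG box in Actg1.
Cap1: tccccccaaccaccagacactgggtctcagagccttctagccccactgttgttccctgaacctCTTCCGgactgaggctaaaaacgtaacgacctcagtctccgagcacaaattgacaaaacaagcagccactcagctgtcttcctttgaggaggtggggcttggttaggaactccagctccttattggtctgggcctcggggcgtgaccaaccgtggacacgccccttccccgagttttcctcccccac
Arpc2: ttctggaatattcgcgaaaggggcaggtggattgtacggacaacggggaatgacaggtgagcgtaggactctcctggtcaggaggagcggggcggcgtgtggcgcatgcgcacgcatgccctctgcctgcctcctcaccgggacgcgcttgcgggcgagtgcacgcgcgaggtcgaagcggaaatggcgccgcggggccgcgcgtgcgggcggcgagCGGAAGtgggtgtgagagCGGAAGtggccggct
Vasp: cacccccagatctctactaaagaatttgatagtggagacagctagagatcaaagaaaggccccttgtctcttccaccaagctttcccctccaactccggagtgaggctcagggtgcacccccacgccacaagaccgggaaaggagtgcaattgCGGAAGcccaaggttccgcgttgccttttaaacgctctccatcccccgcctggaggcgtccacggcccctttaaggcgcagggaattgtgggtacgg
Actg1: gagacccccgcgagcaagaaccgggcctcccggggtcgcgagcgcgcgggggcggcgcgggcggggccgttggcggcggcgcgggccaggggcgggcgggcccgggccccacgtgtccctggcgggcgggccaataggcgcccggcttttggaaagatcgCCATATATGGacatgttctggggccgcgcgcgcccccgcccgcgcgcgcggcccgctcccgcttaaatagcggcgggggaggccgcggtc
No promoter sequence was at hand to search for Actb, Arpc5l, Coro1b, Cyfip1, Diaph1, Nckap1l and Twf2. A promoter was found for the other 41 of the 48 genes. CGGAAG was present on either strand in 15 of them (36.6%), against 29.8% of 7408 promoters of the coding genes tested and 13.8% of all 27025 promoters of this length. The actin genes with CGGAAG kept a median of 25.1% and the 26 without it 14.7%, and 11 of the 15 and 8 of the 26 were called higher in share. Over all coding genes tested the medians with and without it were 13.8% and 14.1%. Of all coding genes tested 9.98% were called higher, and this share was not split by motif. Genes with and without a motif were not matched for DMSO counts per kb. Vasp holds CGGAAG as well. A CArG box, searched on both strands, was present in Actg1 and Arpc4 (4.88% of the 41, against 1.01% of coding genes tested and 1.41% of all promoters), and in Actg1 it began 90 bases before the start. GGGCGG, a binding motif of SP factors, was in 73.2% of the 41, against 60.9% of coding genes tested and 33.0% of all promoters. Here the split went the other way: the 30 actin genes with it kept a median of 15.2% and the 11 without it 21.0%, with 11 and 8 called higher, and coding genes kept 13.96% and 14.1%. GGGCGG and CGGAAG can overlap by 3 letters, and a match describes only the letters in these windows.

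Both cytoplasmic actin genes rose in share. Actb, which encodes beta-actin (chromosome 5, 142902277 to 142909140), had 1680, 1711 and 1992 counts with DMSO and 617, 540 and 564 with SGC0946, and kept 31.97%. Actg1, for gamma-actin (chromosome 11, 120346328 to 120349895), had 900, 942 and 1027 counts against 335, 289 and 368, and kept 34.6%. In both genes every SGC0946 count lay under every DMSO count, as in 99.3% of coding genes. The loss was smaller than that of the library as a whole. The log2 change in share was 0.91 ± 0.05 (SE, adjusted p = 1.5e-23) for Actb and 1.02 ± 0.07 (adjusted p = 3.1e-20) for Actg1.

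The genes of the Arp2/3 complex differed widely in counts kept. On library totals 6 of the 9 rose in share and 3 fell, beside 9.98% and 50.1% of coding genes. The 6 rises held under all 5 scalings. The 3 falls were 2 with TMM, DESeq2 size factors or the Wald test and 0 with cyclic loess. Arpc2, for a subunit that holds the complex to the mother filament (chromosome 1, 74236177 to 74263099), had 7697, 8042 and 8966 counts with DMSO and 4229, 4004 and 3926 with SGC0946, and kept 49.2%. Actr3, for the actin-related protein Arp3 (chromosome 1, 125394779 to 125435673), had 10540, 11328 and 12490 counts against 5663, 5284 and 5761, and kept 48.6%. Actr2, for Arp2 (chromosome 11, 20063965 to 20113047), had 11596, 11957 and 13512 against 5134, 4714 and 4925, and kept 39.9%. The groups did not overlap in any of these, as in 99.3% of coding genes. The genes of both actin-related proteins were on the high side. Their log2 changes in share were 1.53 ± 0.04, 1.51 ± 0.04 and 1.22 ± 0.04 (SE), with adjusted p of 3.2e-46, 1.8e-45 and 3.4e-41. Arpc1b kept 30.7%, and Arpc3 (19.4%) and Arpc4 (18.8%, in a row that also overlaps Tada3) rose by smaller amounts, log2 0.18 and 0.14. At the low end Arpc1a (chromosome 5, 145083610 to 145094952) had 1764, 1685 and 2053 counts with DMSO and 238, 236 and 206 with SGC0946. It kept 12.4%, and its share changed by log2 -0.47 ± 0.07 (adjusted p = 2.2e-08; 0.104 with cyclic loess and limma-trend). Arpc5 (12.7%) and Arpc5l (14.2%, in a row that also overlaps Rpl35), which encode alternative forms of the smallest subunit, fell as well. Arpc5 was not called with cyclic loess. Arpc5l was called only on library totals, and its sign changed with the scaling. Arp2/3 genes held 18.8 ± 0.180% of the counts of the 48 rows with DMSO and 26.9 ± 0.191% with SGC0946 (SD, n = 3 each).

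Among the activators of Arp2/3, 4 of 7 genes rose in share and 1 fell, beside 9.98% and 50.1% of coding genes. Wasf2, for the WAVE2 protein (chromosome 4, 133130224 to 133169533), had 15453, 16340 and 18333 counts with DMSO and 5022, 4614 and 4720 with SGC0946, and kept 28.6% (log2 share 0.75 ± 0.03 SE, adjusted p = 3.4e-29). Its partner in the WAVE complex, Abi1, kept 26.3%. The other WAVE complex genes, Cyfip1 (17.1%) and Nckap1l (18.8%), did not pass (adjusted p = 0.987 and 0.0505). Nckap1l was called higher under each of the 4 other scalings, which makes 5 of the 7. Was, for the WASP protein, and Wipf1, which binds and stabilises WASP, rose with 21.0% and 19.8%. Wasl, for N-WASP (chromosome 6, 24646170 to 24665138), was the one that fell. It had 3262, 3351 and 3861 counts with DMSO and 437, 417 and 442 with SGC0946, and kept 12.4% (log2 share -0.46 ± 0.05 SE, adjusted p = 2.0e-11).

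The genes of filament elongation kept a median of 14.2%, under the 16.8% of all 48 genes and close to the 14.0% of coding genes, and 4 of the 7 kept more than coding genes of similar density. None of the 7 formin and Ena/VASP genes rose in share with edgeR and 6 fell, beside 9.98% and 50.1% of coding genes. The 6 falls were 3 with TMM, DESeq2 size factors or the Wald test and 2 with cyclic loess, since Diaph1, Diaph2 and Fmnl1 were called only on library totals and Evl was not called with cyclic loess. For rises, 1 gene was higher at an unadjusted p under 0.05, and DESeq2 and limma called 0. Vasp (chromosome 7, 19264159 to 19271532) had 1153, 1123 and 1284 counts with DMSO and 126, 116 and 119 with SGC0946. It kept 10.1% and had a log2 change in share of -0.75 ± 0.08 (SE, adjusted p = 8.1e-12). The formin gene Fmnl3 (chromosome 15, 99343302 to 99370558) had 2322, 2305 and 2667 counts against 287, 320 and 246, and kept 11.7% (log2 share -0.55 ± 0.06 SE, adjusted p = 3.4e-11). All treated counts of both genes lay under the controls, as in 99.3% of coding genes. Evl (13.3%), Diaph2 (14.2%) and Fmnl1 (14.2%) also fell. Diaph1, for the formin mDia1 (chromosome 18, 37904184 to 37935586), had 6296, 6723 and 7698 counts against 1070, 1109 and 1033, and kept 15.5%. Its call (log2 share -0.14 ± 0.04 SE, adjusted p = 0.00864) was lost under each other scaling and without SGC0946 replicate 1 (adjusted p = 0.0735), and its sign turned with TMM and DESeq2 size factors. Fmnl2 is the only one of the 48 with a mean under 50 counts: it had 33, 30 and 34 counts with DMSO and 8, 12 and 7 with SGC0946, and did not pass (adjusted p = 0.136). The group held 7.61 ± 0.0777% of the counts of the 48 rows with DMSO and 4.16 ± 0.327% with SGC0946 (SD, n = 3 each).

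Of the 5 genes of monomer-binding proteins 3 rose in share and 1 fell, beside 9.98% and 50.1% of coding genes. Cap1 (chromosome 4, 122860928 to 122886104) had 8048, 8409 and 9465 counts with DMSO and 4406, 4187 and 4344 with SGC0946. It kept 49.9%, and its share rose by log2 1.55 ± 0.04 (SE, adjusted p = 2.1e-46). Pfn1, for profilin, which feeds monomers to formins, kept 25.8%, in a row that also overlaps Eno3, Rnf167 and Slc25a11. Tmsb4x, for thymosin beta 4, which sequesters monomers, kept 25.1%. The twinfilin gene Twf2 (chromosome 9, 106203011 to 106212084) had 1533, 1475 and 1742 counts against 179, 219 and 178 and kept 12.1%. Its fall in share (log2 -0.49 ± 0.07 SE, adjusted p = 5.4e-08) did not pass with cyclic loess and limma-trend (adjusted p = 0.178). Twf1 kept 15.5% and did not pass.

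Of the 9 genes of cofilin, its regulators and the coronins, 5 fell in share and 2 rose, beside 50.1% and 9.98% of coding genes. None of the 5 falls held under all 5 scalings: 3 were called with TMM, 1 with DESeq2 size factors (Coro1b) and 0 with the Wald test or cyclic loess. Cfl1, for the cofilin of non-muscle cells (chromosome 19, 5490290 to 5496400), had 1508, 1627 and 1769 counts with DMSO and 459, 424 and 478 with SGC0946. It kept 27.8% (log2 share 0.70 ± 0.06 SE, adjusted p = 1.3e-16), in a row that also overlaps Snx32. Cfl2, the cofilin best known from muscle (chromosome 12, 54859334 to 54862998), had 471, 544 and 633 counts against 77, 67 and 65 and kept 12.7% (log2 share -0.43 ± 0.11 SE, adjusted p = 0.00176). The cofilins thus moved in opposite directions, though the call of Cfl2 was lost with DESeq2 size factors (adjusted p = 0.0633), the DESeq2 Wald test (0.149) and cyclic loess (0.832). The cofilin phosphatase genes Ssh1 (13.2%) and Ssh2 (14.9%) fell. The kinase genes Limk1 (13.8%) and Limk2 (18.5%), which oppose them, did not pass, with means of 99.0 and 195 DMSO counts. Of the coronins, which act on branched networks, Coro1c kept 25.5% and rose, and Coro1a (14.5%, in a row that also overlaps Bola2 and Slx1b) and Coro1b (12.8%) fell. The signs of Ssh2 and Coro1a changed with the scaling.

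The genes for the capping protein behaved unlike one another. Capza2, for an alpha subunit (chromosome 6, 17636981 to 17661205), had 7131, 7978 and 8828 counts with DMSO and 3743, 3426 and 3425 with SGC0946, and kept 44.3% (log2 share 1.37 ± 0.04 SE, adjusted p = 3.9e-42). Capza1, for the other alpha subunit, kept 31.4% in a row that also overlaps St7l and rose as well. Capzb, for the beta subunit that pairs with either, kept 16.5% and did not pass (adjusted p = 0.351). With cyclic loess Capzb was called lower, and its sign changed with the scaling. Gsn, for the severing and capping protein gelsolin (chromosome 2, 35256015 to 35283276), had 5646, 5569 and 6462 counts against 775, 764 and 796, kept 13.2% and fell in share (log2 -0.37 ± 0.05 SE, adjusted p = 2.4e-10). Its relative Capg, abundant in macrophages, kept 16.2% and did not pass.

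Among the crosslinkers 1 of 4 rose and 3 fell, beside 9.98% and 50.1% of coding genes. Lcp1, for the filament bundler L-plastin (chromosome 14, 75173892 to 75208763), had 10768, 11324 and 12558 counts with DMSO and 4407, 3927 and 3964 with SGC0946. It kept 35.5% (log2 share 1.05 ± 0.04 SE, adjusted p = 1.1e-36). Actn1, for an alpha-actinin (chromosome 12, 80230570 to 80260379), had 3195, 3322 and 3594 counts against 363, 410 and 349 and kept 11.1% (log2 share -0.62 ± 0.06 SE, adjusted p = 5.5e-15). Actn4 (13.1%) and the filamin gene Flna (12.6%) fell too, though Flna was not called with cyclic loess.

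**Figure D2:**
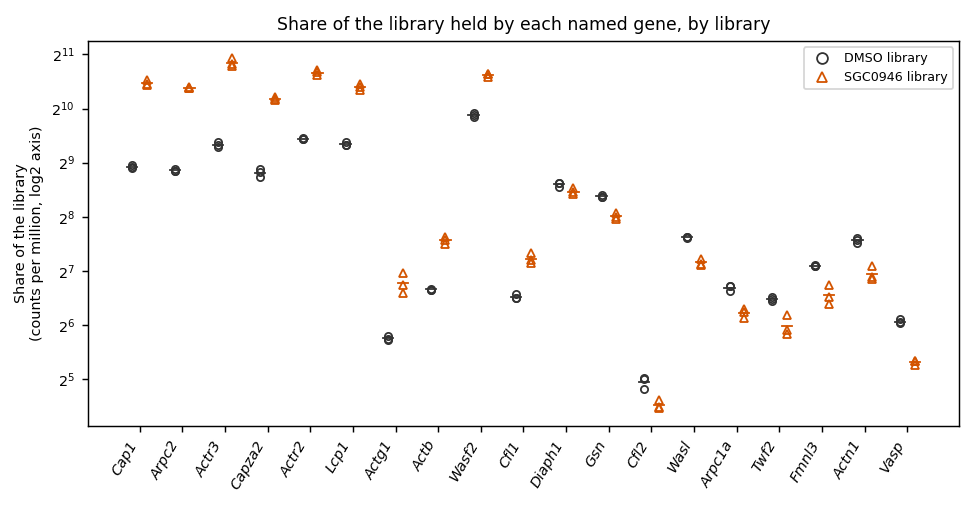
Share of the library, as CPM on a log2 axis, of the 19 genes given by library, ordered from the most to the least counts kept. Circles are the 3 DMSO and triangles the 3 SGC0946 libraries, and bars are group means. From Cap1 to Cfl1 all SGC0946 libraries lie above the DMSO libraries, and from Diaph1 to Vasp below them.

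Densely marked actin genes kept more than sparsely marked ones. Among the 16 genes with the most DMSO counts per kb (268 to 425), the median kept was 29.7% and 13 rose in share. In the middle 16 (174 to 267 per kb) it was 15.5%, with 5 rises and 8 falls, and in the sparsest 16 (26.1 to 162 per kb) 13.5%, with 2 rises, Was and Tmsb4x, and 11 falls. Over coding genes of all densities 9.98% rose and 50.1% fell, and these shares were not split by density here. Across the 48 genes, which share libraries and depth, the Spearman correlation of counts kept with density was 0.634, and DMSO counts enter both measures. Over all 9089 coding genes tested it was -0.0649, and over the 7942 coding genes with a mean of at least 50 counts it was 0.175. Within the range of most actin genes the same rise was present in coding genes: those with a density like that of Was (127 per kb) kept a median of 12.5%, of Actg1 (268) 16.8%, of Cap1 (343) 21.0% and of Wasf2 (425) 26.3%. Around Fmnl2 (26.1) it was 23.6%, so the relation was not the same at low densities. The actin genes were also dense as a group, with a median of 241 DMSO counts per kb against 112 for coding genes tested.

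Set against coding genes of similar density (DMSO counts per kb between 80% and 125% of the gene's own), 30 of the 48 kept more than the median of those genes. That is 62.5%, against 51.2% of coding genes placed in the same way. Without the 6 rows that overlap further coding genes, all of which lay above the median, it was 24 of 42 (57.1%). Above the upper quartile were 17 (35.4%, background 25.4%) and below the lower quartile 8 (16.7%, background 22.8%). Of the 20 genes that rose in share, 14 lay above the upper quartile and 6 between the quartiles. Of the 20 that fell, 6 lay below the lower quartile, 12 between the quartiles and 2, Arpc5l and Ssh2, above the upper quartile. Most falls in share were thus not low for genes of that density. Actr3 kept 2.81 times the median of its 922 comparison genes (17.3%), Arpc2 2.63 times, Actr2 2.49 times, Cap1 2.37 times, Capza2 2.17 times and Actg1 2.06 times. Tmsb4x (1.98 times) and Was (1.68 times) were high for sparsely marked genes. Wasf2, Abi1, Wipf1 and Coro1c rose in share but kept 1.09, 0.990, 0.939 and 1.13 times what coding genes of their density kept. At the other end were Vasp (0.787 times), Cyfip1 (0.805), Fmnl1 (0.812) and Arpc5 (0.815). The genes named by this ratio were chosen after their values were seen.

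**Figure D3:**
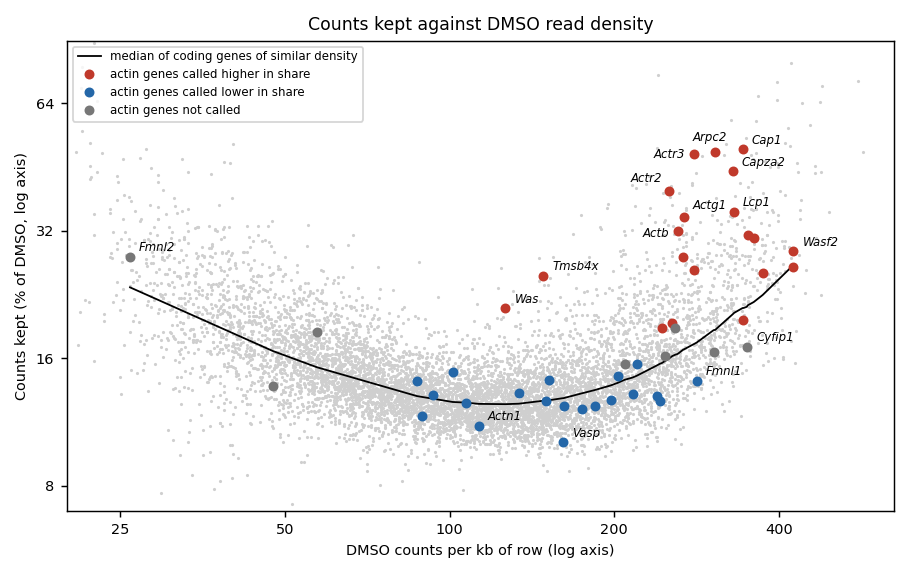
Counts kept (y axis, log) against DMSO counts per kb of the row (x axis, log) for coding genes tested (grey points, those outside the axes not drawn) and the 48 actin genes (coloured by call). The line is the median of coding genes of similar density at each actin gene. Actr3, Arpc2, Cap1, Capza2 and Actr2 lie far above it, and Vasp, Cyfip1 and Fmnl1 below.

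Related genes were compared within libraries, where the scaling between libraries drops out. For 16 pairs of relatives the count of the first was divided by that of the second in each library. In 13 pairs the 3 SGC0946 ratios did not overlap the 3 DMSO ratios, and in 4 the mean ratio moved by over 1.5 times. Over all 24735061 pairs of coding-gene rows with a mean of at least 50 counts, 49% did not overlap and 19.6% moved by over 1.5 times. Separate ratios are thus common between any genes, and no test was made of these pairs, since the values of their genes were known. Arpc1b over Arpc1a went from 2.67, 2.74 and 2.60 with DMSO to 6.66, 6.10 and 7.20 with SGC0946. The rows of these alternative subunit genes lie 19.0 kb apart on chromosome 5. Coro1c over Coro1a went from 10.6 ± 0.401 to 18.6 ± 0.934 (SD, n = 3 each). Wasl over Was went from 7.18 ± 0.554 down to 4.21 ± 0.249, and Cfl2 over Cfl1 from 0.335 ± 0.0228 to 0.154 ± 0.0163. The actin pair stayed together: Actg1 over Actb was 0.536, 0.551 and 0.516 with DMSO and 0.543, 0.535 and 0.652 with SGC0946, and the ranges overlapped, as they did for Arpc5l over Arpc5 and Diaph2 over Diaph1. Coro1c and Ssh1, whose rows lie 34.1 kb apart on chromosome 5, are another case of neighbours that differed, with 25.5% and 13.2% kept.

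**Figure D4:**
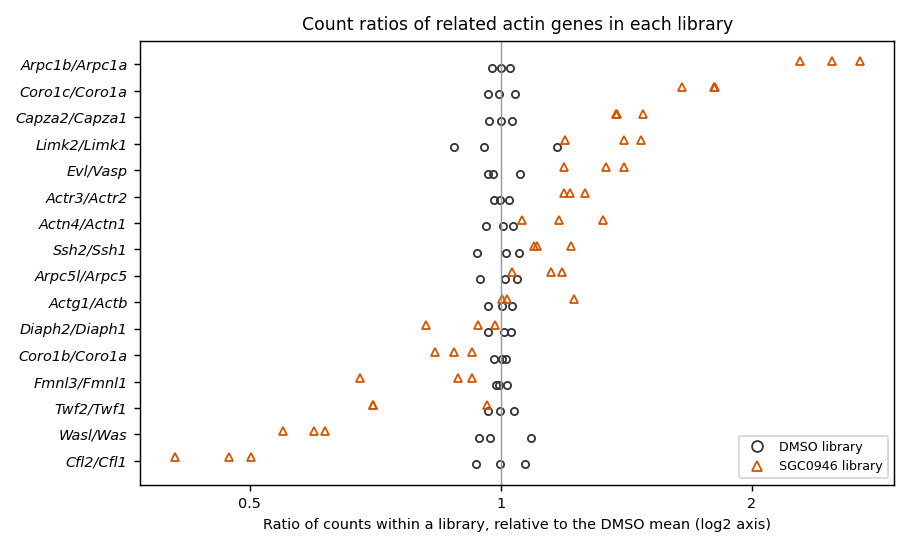
Ratio of the counts of related genes within each library, divided by the DMSO mean of that ratio (x axis, log2). Circles are the 3 DMSO and triangles the 3 SGC0946 libraries. Arpc1b/Arpc1a lies farthest to the right, at 2.49 times its DMSO mean on average, and Cfl2/Cfl1 farthest to the left, at 0.460 times.

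The rows were long and mostly lay at an annotated start of the gene. They measured 1240 to 87459 bp with a median of 12629 bp, against 6379 bp for coding genes tested. In 35 of the 41 genes with an annotated promoter the row held a start or began within 1000 bp of one. The exceptions were Fmnl2, Evl, Ssh1, Limk1, Flna and Lcp1. The row of Lcp1 began 42.8 kb inside the gene and kept 35.5%, which was the largest value among these exceptions. Wipf1 and Ssh2 were counted among the 35 by a further annotated start. Their rows began 40572 and 131710 bp downstream of the most upstream start.

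The 48 genes had 127 further rows, which the choice of rows left out. Of these, 29 rows in 15 genes had a mean of at least 50 counts. With edgeR none of the 29 rose in share and 9 fell, beside 6.16% and 23.3% of all regions tested. At an unadjusted p under 0.05, 0 of the 29 were higher. DESeq2's Wald test called 0 of them higher, TMM and DESeq2 size factors 1 each and limma after cyclic loess 3. Among the 98 further rows under 50 counts, edgeR called rows of Fmnl2, Evl, Ssh2 and Limk1 higher, with means of 4.5 to 13.5 counts. The 29 rows kept between 10.2% and 17.8% (median 14.1%), and 18 of them kept less than the chosen row of their gene. The other 11 kept more. All further rows kept less in 7 of the 15 genes and more in 5, and 3 genes had both. The genes that follow were chosen after their values were seen. For Lcp1 they kept 14.7%, 14.9% and 16.7%, with densities of 53.9 to 73.8 DMSO counts per kb against 331 in the chosen row. For Wasf2 the further row kept 17.6% (28.6% in the chosen row), and for Abi1 12.7% and 13.7% (26.3%). For Nckap1l it kept 10.2% (18.8%), and the 6 further rows of Wipf1 kept 10.9% to 16.9% (19.8%). Of these Wipf1 rows, that of 16196 bp fell in share while the chosen row rose (log2 -0.65, adjusted p = 8.8e-13). Those of 4663 and 3430 bp fell too (adjusted p = 0.046 and 0.0032). The further Abi1 row of 52337 bp fell in share (9575 to 1220 mean counts, log2 -0.42, adjusted p = 3.6e-14) while the chosen row rose, so the call differed between stretches of this gene. The 5 genes whose further rows kept more had low chosen rows: Fmnl3 (11.7% in the chosen row, 16.9% in the further one), Flna (12.6%, then 12.97% and 17.8%), Actn1 (11.1%, then 13.1%), Actn4 (13.1%, then 14.1%) and Diaph2 (14.2%, then 15.2%). With the counts of all rows of a gene added up, 21 genes rose in share and 19 fell.

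**Figure D5:**
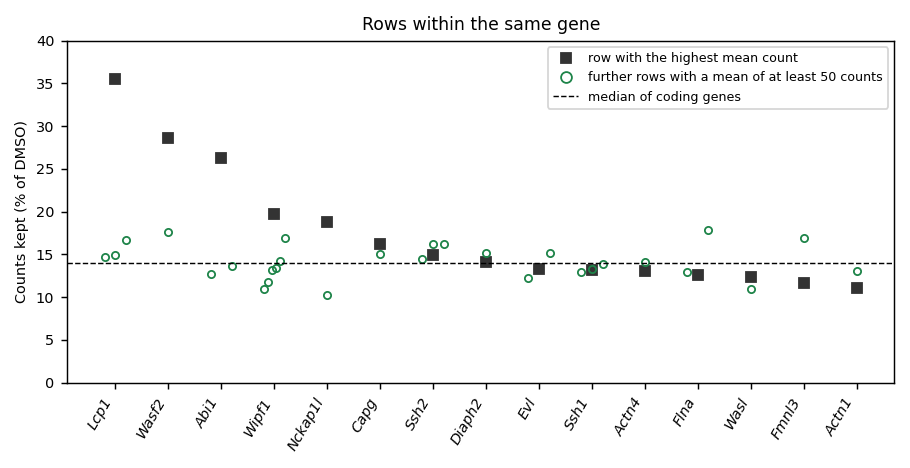
Counts kept (y axis) in the row that stood for each gene (squares) and in its further rows with a mean of at least 50 counts (circles), for the 15 genes with such rows. All further rows lie between 10.2% and 17.8%, also in Lcp1, Wasf2 and Abi1, whose chosen rows kept 35.5%, 28.6% and 26.3%.

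The signalling genes that drive actin assembly also held both rises and falls. Of 31 genes for small GTPases, their regulators and cofactors 28 had a row, and 9 rose in share and 15 fell (coding genes 9.98% and 50.1%). Cdc42, the GTPase that activates WASP proteins, had 15146, 16046 and 17771 counts with DMSO and 11397, 10122 and 10474 with SGC0946. It kept 65.3%, more than any of the 48 genes (log2 share 1.94 ± 0.03 SE, adjusted p = 1.1e-53). Rhoa, which activates formins, kept 40.6% in a row that also overlaps Tcta and rose in share (adjusted p = 1.3e-40). The lowest were Baiap2, for an adaptor between GTPases and the WAVE complex (9.65%), and Mrtfb, for an actin-sensing cofactor of SRF (11.0%), both lower in share. Of 16 myosin and tropomyosin genes 12 had a row, with Myl12a and Myl12b on the same one. Here 3 rose and 7 fell: Tpm3 kept 41.5%, Myo1f 38.5%, Tpm1 12.8% and Myo1e 11.8%. These lists too were made with earlier results known.

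Relatives of the 48 genes that are best known from other tissues mostly had no row. This held for 24 of 35, among them the muscle actin genes Acta1, Acta2, Actc1 and Actg2. Of the 11 with a row 6 fell in share, none rose with edgeR at library totals and 2 were not tested, beside 50.1% and 9.98% of coding genes. At an unadjusted p under 0.05, 2 were higher, as were 2 with the DESeq2 Wald test and 0 with limma. The 7 with a mean of at least 50 counts kept a median of 12.5%, with Cyfip2 (11.3%) and Coro2a (11.4%) lowest and Diaph3 (13.5%) and Tmsb10 (17.5%, not called) highest. Of the 10 macrophage markers, Cd68 (28.3%) rose in share, in a row that also overlaps Eif4a1 and Senp3, and Mertk (11.5%) fell. The 8 others did not pass, and Itgam kept 16.3%. Of the 5 other-cell markers with a row, Zbtb46 fell, and Lck (1.33 mean DMSO counts) and Mpo (3.67) were called higher.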

How the data were processed

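The deposited table holds read counts per region in 6 ChIP libraries, as whole numbers with no scaling visible. Per the submitters' processing notes the build was mm10, and the tools include ChIPseeker 1.20.0, R 3.6.3, HISAT2, bedtools 2.27.0 and HOMER 4.11.1. The sources used here do not say which of them called regions or counted reads, or how duplicates were treated. Starts were read as zero-based, and regions were matched to RefSeq gene spans of GRCm38.p6 (Python 3.11.15, pandas 2.3.3).

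In R 4.3.3, edgeR 4.0.16 was fitted to all 23367 regions passing filterByExpr (24895 on unscaled counts, with equal library sizes), and p-values were adjusted over all of them. The main scaling was the library total, with a common biological coefficient of variation of 3.57%. Each SE is the log2 change divided by the square root of F. Alternatives were TMM, DESeq2 1.42.0, cyclic loess with limma 3.58.1, other count filters, a replicate block, each library left out, and other choices of row. On counts simulated for this comparison (24016 regions tested), 54% of regions changed by 25% were recovered. At 1.5-fold this was 78%, at 2-fold 98% and at 4-fold 100%, and 6 unchanged regions were called. The changed regions, 50 at each size, were drawn from rows with a mean of at least 50 counts. They went up or down at random, and all regions had the common dispersion. These rates therefore do not cover sparser rows or the choice of scaling, and are not error rates of the calls given here.

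Libraries of a group differed by more than sampling noise (chi-square per degree of freedom 1.32 to 2.38). The members and lists were chosen with earlier results of these data known. Values by library were given for the 6 genes that kept most, the 6 that kept least, both actins and the extremes of each role group, among genes with a mean of at least 50 counts. From the other lists, the 2 highest and the 2 lowest were named, except 1 macrophage marker that is not reported here.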

Additional observations from a re-analysis of the deposited data

How the results depend on the processing

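All 48 genes, where tested, stayed lower on unscaled counts under the alternatives run. The number called higher in share ranged from 18 to 21 with all 48 genes. The number called lower fell from 20 to 12 (DESeq2 size factors in edgeR), 11 (DESeq2 Wald test) and 7 (cyclic loess). The median log2 change in share turned from -0.02 to 0.12 with TMM, 0.13 after DESeq2 size factors, 0.091 in the Wald test and 0.15 with cyclic loess. It was -0.062 with the longest overlapping row and -0.062 over rows of 1 coding gene, and between -0.063 and -0.0077 with a library left out. The median kept was 16.4% in both of those row choices and 16.4% to 17.6% with a library left out. The number above coding genes of similar density ranged from 30 to 32 with all 48 genes and was 24 of 42 over rows of 1 coding gene. Diaph1 turned to log2 0.00085 with TMM and 0.014 with DESeq2 size factors. The cause of these changes was not tested. With the replicate block 19 genes rose and 20 fell, with a median of -0.02. Same-numbered libraries did not deviate together (r = 0.0092, -0.114 and -0.0120 over 11055 regions), so the numbers were not taken as pairs. Fmnl2, with 9.00 SGC0946 counts on average, and Limk1, with 13.7, had an SE of log2 share too wide to show a moderate change.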
